A study of Mus musculus with 16 samples.

Results

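Glycolysis splits glucose into pyruvate in the cytosol, and the pentose phosphate pathway branches off at glucose-6-phosphate. The 34 genes described here were taken from a fixed list that follows these pathways step by step. It holds 3 glucose transporters, the enzymes from hexokinase to lactate dehydrogenase, the enzymes that set the level of fructose-2,6-bisphosphate, 2 lactate transporters and 6 pentose phosphate enzymes. No measured value entered the choice of genes, although earlier results of these data were known when the list was drawn up. All 34 were found among the 55604 genes listed, and 33 were among the 16861 genes that reached 10 counts in 4 or more of the 8 libraries. *Fbp1*, which encodes the gluconeogenic fructose-1,6-bisphosphatase, had 0 to 8 counts per library and was not tested.

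RNA was sequenced from tumor-associated macrophages (TAMs) of C57BL/6 mice bearing tumors of ID8, a mouse ovarian cancer line that grows in the peritoneal cavity. The methods give female mice aged 6 to 8 weeks, and material was taken 6 to 7 weeks after inoculation. After a density gradient, Tim-4+ TAMs were drawn from the peritoneal wash with a PE-labeled Tim-4 antibody and beads against PE, and Tim-4- TAMs were then enriched from the remaining Tim-4- cells with beads against F4/80. Both subsets thus came from wild-type, untreated, tumor-bearing animals and differed in the bead selection, and there were 4 libraries of each, numbered as pairs 793, 784, 783 and 779. Tim-4, encoded by *Timd4*, is a receptor for phosphatidylserine that marks long-lived resident macrophages of the peritoneum. Whether a pair came from 1 mouse or from pooled mice is not given in the sources used here, so p-values measure the spread between these pairs.

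Hexokinase traps glucose in the cell as glucose-6-phosphate, phosphofructokinase commits it to glycolysis, and the later enzymes recover ATP, NADH and pyruvate. Lactate dehydrogenase turns pyruvate into lactate and regenerates NAD+, and monocarboxylate transporters carry lactate across the membrane. The oxidative pentose phosphate enzymes make NADPH, which macrophages use for the oxidative burst and for reducing glutathione, and the nonoxidative enzymes return sugar phosphates to glycolysis. Inflammatory macrophages are known for high glycolysis, whereas resident peritoneal macrophages are known for their reliance on mitochondrial respiration.

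The labeled subsets were first checked by their markers. *Timd4* was 1149 ± 498 CPM (counts scaled to library size, mean ± SD over 4 libraries) in Tim-4+ and 30.1 ± 37.5 CPM in Tim-4- TAMs. The summed level of 8 macrophage markers (among them *Adgre1*, which encodes F4/80) spanned 43281 to 55722 CPM in Tim-4+ and 20879 to 33376 CPM in Tim-4- TAMs. By the test given below, 5 of these 8 genes were called higher in the Tim-4+ subset, 1 was called lower and 2 did not pass. Markers of other cells also moved with the subset. The 12 mesothelial, epithelial and ID8 tumor markers summed to 116 to 418 CPM in Tim-4+ and to 471 to 2220 CPM in Tim-4- TAMs, without overlap, and 11 of the 12 were called lower in the Tim-4+ subset (the test is given below). The 8 cycling markers summed to 327 to 543 CPM and 522 to 644 CPM in the same order, and 4 of them were lower. Lymphocyte markers reached at most 13.9 and 17.2 CPM, and dendritic cell markers at most 30.0 and 18.8 CPM. The sum of the 9 granulocyte markers ranged from 252 to 369 CPM and from 99.0 to 197 CPM. This gap did not hold gene by gene. Only 5 granulocyte markers had enough counts for the test, which called 1 upward and 1 downward and left 3 uncalled. The part of these markers in the results below was not tested, and in bulk RNA fewer cells of a type cannot be told apart from less RNA per cell. Erythroid markers were highest in pair 783, at 255 CPM in its Tim-4+ and 65.5 CPM in its Tim-4- library. The total per library was 53527928 to 69594245 counts on genes, and the smallest level of 3 counts corresponded to 0.0382 to 0.0630 CPM, a floor that covers counting error only.

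Both subsets expressed every step from glucose uptake to lactate export, and the genes that differed between them lay at several steps and in both directions. Members were tested with edgeR's quasi-likelihood test, with the pair as a blocking term, and called where the p after Benjamini-Hochberg adjustment (all tested genes) was under 0.05. In Tim-4+ TAMs 5 of 33 members were called higher, against 8.97% of all genes, and 4 were called lower, against 8.43%. The members higher in Tim-4+ TAMs were *Hk1*, *Gpi1*, *Aldoa*, *Gapdh* and *G6pdx*, and the lower ones were *Slc2a3*, *Pfkfb4*, *Pgk1* and *Eno2*. The other 24 tested members did not pass. At a 2-fold change, 0 members were higher and 2 were lower, *Slc2a3* and *Eno2*, where 3.8% and 5.79% of all genes passed. At an unadjusted p under 0.05, 10 members were higher (16.8% of all genes) and 6 were lower (16.9%). By sign alone 19 members were above 0 and 14 below, and their median log2 fold change was 0.11, against -0.00117 for all genes. In all 4 pairs 12 members were higher (22.4% of all genes were) and 7 were lower (20.2%). The 4 libraries of each subset did not overlap for 4 higher members (6.84% of all genes) and 1 lower member (5.92%). Within a pair, the median log2 ratio of the members was -0.04, 0.28, -0.04 and 0.18 in pairs 793, 784, 783 and 779.

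The calls of the members and those of all genes depended on the pairs, on the pairing and on the scaling. When pair 784 or pair 779 was left out, 0 members were called in either direction, and without pair 793 the calls were *G6pdx* and *Hk1*. Without pair 783 *Aldoa* and *Pgk1* were no longer called while *Rpia*, *Ldhb* and *Pfkm* were (9.51% and 11.8% of all genes). Each of the 9 called members kept its direction in every case. Without the pair as a block 0 members were called higher (0.87% of all genes were) and 1, *Slc2a3*, lower (0.50%). With libraries scaled by their total instead of TMM factors, the median of all genes was -0.36. *Hk1* was then the only member called higher (4.68% of all genes were), while 13 members were called lower (29.1%). The log2 fold changes of *Hk1*, *Gpi1*, *Aldoa*, *Gapdh* and *G6pdx* were then 0.40, 0.25, 0.25, 0.27 and 0.23, and all 4 lower members were still called lower.

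**Figure D1:**
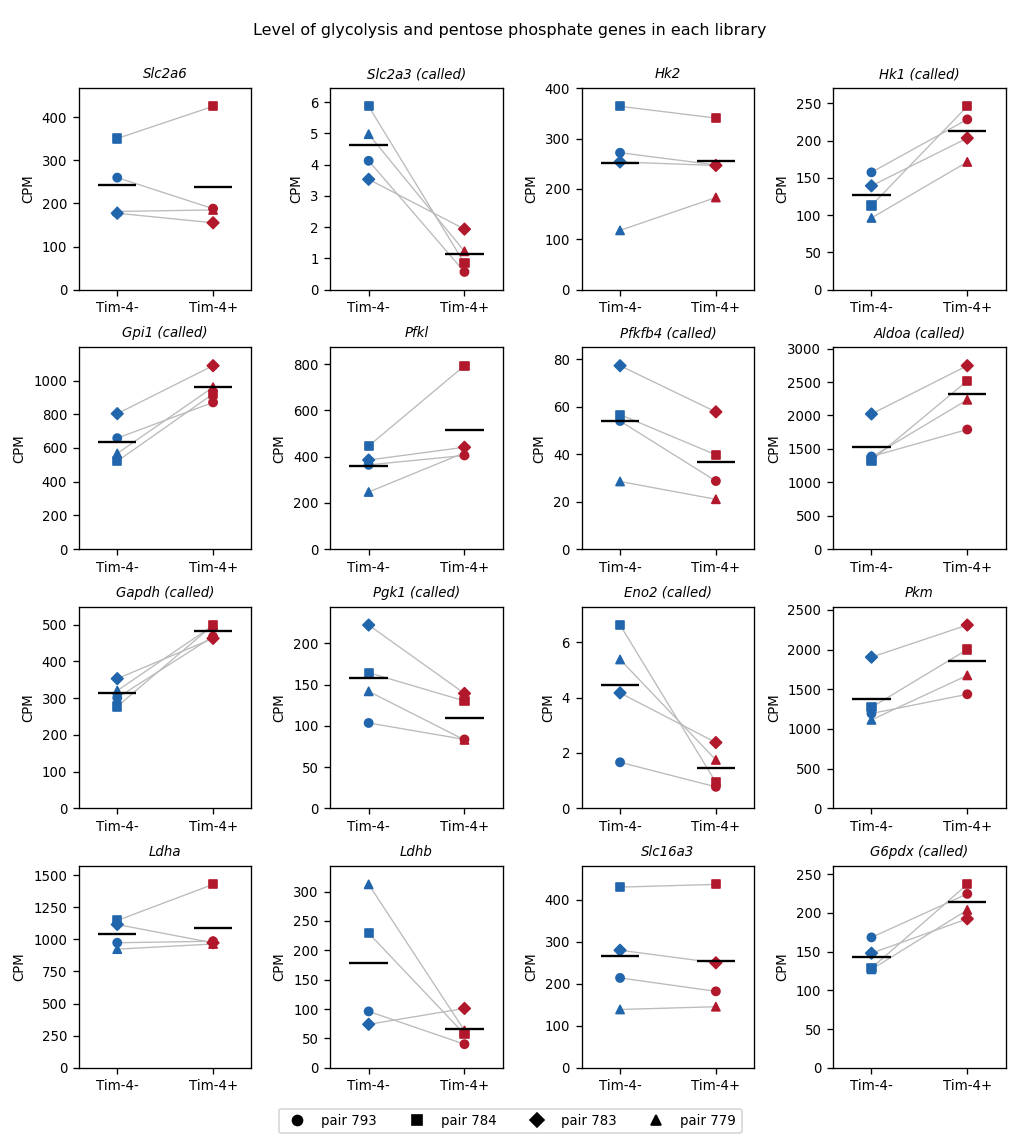
CPM (vertical axis, linear, from 0) of 16 members in the Tim-4- (blue) and Tim-4+ (red) library of each pair, with a symbol per pair, a grey line joining partners and a black bar for the mean of 4 libraries. The lines of *Hk1*, *Gpi1*, *Gapdh* and *G6pdx* rise in every pair and those of *Slc2a3*, *Pfkfb4*, *Pgk1* and *Eno2* fall in every pair, while those of *Slc16a3* stay nearly level.

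**Figure D2:**
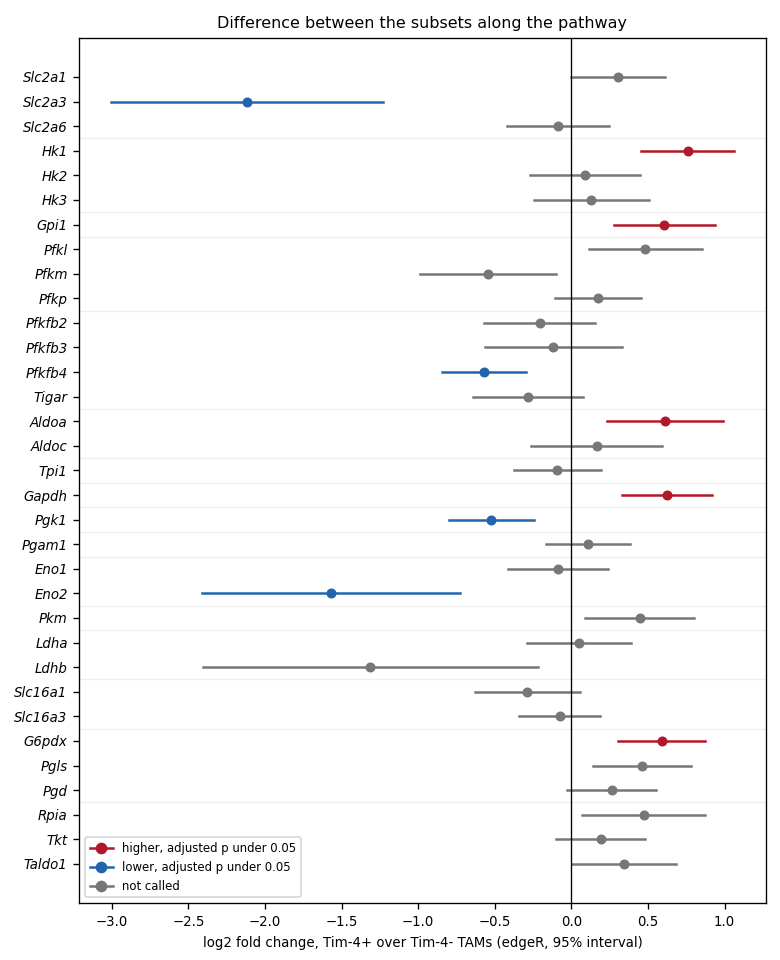
Log2 fold change of Tim-4+ over Tim-4- TAMs (horizontal axis) with its 95% interval for the 33 tested members in pathway order, red for the 5 higher, blue for the 4 lower and grey for the 24 that did not pass the adjusted p. The 6 pentose phosphate genes at the bottom lie above 0, and *Slc2a3* and *Eno2* lie farthest below 0, at -2.12 and -1.57.

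The sequence just before the RefSeq start (GRCm38.p6) is shown for 4 called members with a hypoxia response core, so that genes of opposite direction can be read side by side. *Pgk1* (chrX:106186850-106187099, plus strand) and *Pfkfb4* (chr9:108991652-108991901, plus strand) were lower in Tim-4+ TAMs. *Gapdh* (chr6:125165774-125166023, minus strand) and *G6pdx* (chrX:74428881-74429130, minus strand) were higher. Capitals mark the hypoxia response cores ACGTG and GCGTG or their reverse complements, to which hypoxia-inducible factors can bind. Each run gives the 250 bases before the start, 5′ to 3′ on the strand of the gene.
Pgk1: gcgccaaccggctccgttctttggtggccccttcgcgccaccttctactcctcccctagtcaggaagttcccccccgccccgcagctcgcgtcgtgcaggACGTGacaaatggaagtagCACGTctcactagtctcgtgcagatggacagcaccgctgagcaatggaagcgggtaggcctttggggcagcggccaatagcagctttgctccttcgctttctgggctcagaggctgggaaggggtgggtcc
Pfkfb4: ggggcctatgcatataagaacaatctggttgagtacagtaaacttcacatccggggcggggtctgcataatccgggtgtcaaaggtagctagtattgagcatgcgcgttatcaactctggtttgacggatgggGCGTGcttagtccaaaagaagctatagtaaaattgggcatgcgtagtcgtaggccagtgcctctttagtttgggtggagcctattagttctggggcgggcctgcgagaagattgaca
Gapdh: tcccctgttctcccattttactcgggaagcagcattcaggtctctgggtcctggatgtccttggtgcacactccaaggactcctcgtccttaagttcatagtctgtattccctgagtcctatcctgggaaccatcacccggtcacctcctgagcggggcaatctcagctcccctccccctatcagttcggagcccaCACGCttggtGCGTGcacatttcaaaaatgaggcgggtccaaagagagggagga
G6pdx: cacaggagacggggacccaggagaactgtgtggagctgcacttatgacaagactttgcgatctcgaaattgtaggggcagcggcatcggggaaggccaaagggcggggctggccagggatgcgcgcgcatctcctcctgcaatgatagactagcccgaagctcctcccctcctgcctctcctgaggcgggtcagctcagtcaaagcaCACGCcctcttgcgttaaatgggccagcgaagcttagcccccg

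The cores of *Pgk1* began at positions -150 and -131 from the start, the core of *Pfkfb4* at -117, those of *Gapdh* at -54 and -44, and that of *G6pdx* at -43. RefSeq promoter windows, which run from 250 bases before to 50 bases after a start, were matched for 33 of 34 members (*Slc2a3* was not matched) and searched on both strands. ACGTG was present in a window of 17 of 33 members (51.5%), against 28.2% of tested genes with a window. GCGTG was present in 22 (66.7%, against 53.3%), the E-box CACGTG, which contains ACGTG, in 5 (15.2%, against 11.3%) and the antioxidant response core TGACNNNGC in 6 (18.2%, against 16.8%). The GC box GGGCGG was present in 27 members (81.8%, against 65.4%) and TATAAA in 2 (6.06%, against 9.40%). Of the genes called higher, 4 of 5 held ACGTG, and of the 3 called lower that had a window, 1 did. In the same order GCGTG was held by 3 and 1, the E-box by 0 and 0 and the antioxidant response core by 3 and 0. The GC box was held by 3 and 2 and TATAAA by 0 and 1. For *Gapdh* and *G6pdx* the ACGTG of the window lay outside the 250 bases shown, whose cores are of the GCGTG form. For *Hk1* and *Aldoa* it lay in other windows than the one nearest the annotated gene start. These matches describe letters in a window and were not tested against the change in expression.

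Among the glucose transporters, those of high level did not pass the test and the rarest was lower in Tim-4+ TAMs. *Slc2a3*, which encodes the high-affinity transporter GLUT3, was at 0.567, 0.840, 1.94 and 1.23 CPM in the Tim-4+ libraries of pairs 793, 784, 783 and 779 and at 4.12, 5.87, 3.53 and 4.97 CPM in the Tim-4- libraries. Every Tim-4+ library lay below every Tim-4- library, and the gap was smallest in pair 783. The fitted log2 fold change was -2.12 ± 0.38 (SE), 4.34-fold lower, with an adjusted p of 0.0135 by edgeR's quasi-likelihood test. These levels rest on 27 to 429 counts per library. *Slc2a6*, which encodes the lysosomal transporter GLUT6, had the highest level per kb of exon of the glucose transporters among the members (74.1 CPM per kb in Tim-4+ and 75.4 in Tim-4- TAMs). It was at 188, 425, 155 and 185 CPM in the Tim-4+ libraries and at 260, 350, 177 and 181 CPM in the Tim-4- libraries. The ranges overlapped, pair 784 was highest in both subsets, and the log2 fold change was -0.09 (95% interval -0.42 to 0.24, adjusted p = 0.710 by the same edgeR test). *Slc2a1*, which encodes the widespread transporter GLUT1, was at 153 ± 86.4 and 130 ± 86.4 CPM. It was higher in Tim-4+ TAMs within all 4 pairs, yet its log2 fold change of 0.31 had an interval of -0.00 to 0.61 and an adjusted p of 0.152 (edgeR), and under total-count scaling it turned to -0.05.

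Of the 3 hexokinases, *Hk1* was higher in Tim-4+ TAMs. *Hk1* encodes the mitochondria-bound housekeeping hexokinase (chr10:62268855-62379908, on GRCm38 as for the other genes). It was at 228, 246, 203 and 171 CPM in the Tim-4+ libraries and at 157, 113, 139 and 96.2 CPM in the Tim-4- libraries. The subsets did not overlap, and the lowest library of each was that of pair 779. Its log2 fold change was 0.76 ± 0.13 (SE), 1.69-fold, with an adjusted p of 0.0120 by edgeR's quasi-likelihood test. *Hk2*, the hexokinase induced by insulin and hypoxia, had the highest mean level per kb of the 3 (42.6 and 42.2 CPM per kb). It was at 248, 341, 247 and 183 CPM in the Tim-4+ libraries and at 272, 364, 254 and 118 CPM in the Tim-4- libraries. Pair 779 was the only pair that was higher in Tim-4+ TAMs, with a log2 fold change over all pairs of 0.09 (interval -0.27 to 0.45, adjusted p = 0.727, edgeR). *Hk3*, the hexokinase of myeloid cells, was at 126 ± 25.3 and 121 ± 49.2 CPM, with an interval of -0.25 to 0.51 on the log2 scale. As a share of the hexokinase CPM per kb, *Hk1* made up 27.5%, 24.8%, 21.8% and 23.8% in Tim-4+ libraries and 18.6%, 14.0%, 14.9% and 20.1% in Tim-4- libraries. The share was higher in the Tim-4+ library of all 4 pairs. The mean share was 41.5% ± 5.79 and 46.1% ± 13.1 for *Hk2* and 34.1% ± 7.21 and 37.0% ± 11.4 for *Hk3*, and in both libraries of pairs 783 and 779 *Hk3* had the larger share. With the longest transcript as length the mean shares of *Hk1*, *Hk2* and *Hk3* were 36.8%, 33.8% and 29.4% in Tim-4+ and 26.7%, 39.8% and 33.5% in Tim-4- TAMs, so the order of the 3 genes depended on the length used.

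*Gpi1*, which encodes the isomerase that turns glucose-6-phosphate into fructose-6-phosphate, was also higher in Tim-4+ TAMs. It was at 871, 921, 1089 and 961 CPM in the Tim-4+ libraries and at 658, 522, 804 and 567 CPM in the Tim-4- libraries. Again no Tim-4- library reached the lowest Tim-4+ library, and pair 783 was the highest of both subsets. In the fit, its log2 fold change was 0.61 ± 0.14 (SE), 1.52-fold, with an adjusted p of 0.0276 (edgeR). At phosphofructokinase, the liver-type *Pfkl* was at 405, 793, 440 and 416 CPM in the Tim-4+ libraries and at 364, 446, 385 and 247 CPM in the Tim-4- libraries. Each pair was higher in Tim-4+ TAMs, but pair 784 stood far above the other Tim-4+ libraries, the ranges overlapped, and the log2 fold change of 0.48 ± 0.16 had an adjusted p of 0.0745 (edgeR). The muscle-type *Pfkm* had a log2 fold change of -0.54 ± 0.19 and an adjusted p of 0.0895, and the platelet-type *Pfkp* had one of 0.17 with an interval of -0.11 to 0.46. *Pfkl* made up 84.2% ± 3.56 of the phosphofructokinase CPM per kb in Tim-4+ and 77.8% ± 4.16 in Tim-4- TAMs, a higher share in all 4 pairs. The share of *Pfkm* was 6.51% ± 3.20 and 11.7% ± 4.08, lower in all 4 pairs.

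Fructose-2,6-bisphosphate, the strongest activator of phosphofructokinase, is made and removed by bifunctional enzymes of the *Pfkfb* genes, and TIGAR (*Tigar*) removes it. Of these genes, *Pfkfb4* (chr9:108991778-109032228) was lower in Tim-4+ TAMs. It was at 28.7, 39.7, 57.8 and 21.0 CPM in the Tim-4+ libraries and at 54.0, 56.7, 77.3 and 28.5 CPM in the Tim-4- libraries. The ranges overlapped, pair 783 was highest and pair 779 lowest in both subsets, and within each pair the Tim-4+ library was lower. The log2 fold change was -0.57 ± 0.12 (SE), 1.49-fold lower, with an adjusted p of 0.0188 (edgeR). *Pfkfb3*, the main family member of activated macrophages, was at 181 ± 45.1 and 196 ± 53.7 CPM, with a log2 fold change of -0.12 (interval -0.57 to 0.33). It held 73.0% ± 11.2 of the family's CPM per kb in Tim-4+ and 68.0% ± 7.77 in Tim-4- TAMs. *Pfkfb2* and *Tigar* were lower within all 4 pairs without passing the test, with log2 fold changes of -0.21 (adjusted p = 0.399) and -0.28 (adjusted p = 0.245) by edgeR. *Fbp1* was at 0 to 0.120 CPM, near or below the floor.

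Among the enzymes from aldolase to lactate dehydrogenase, 2 genes were higher (8.97% of all genes were), 2 were lower (8.43%) and 7 did not pass. *Aldoa* (chr7:126795234-126800751), which encodes the aldolase that splits fructose-1,6-bisphosphate into trioses, had the highest level per kb of all members, 798 CPM per kb in Tim-4+ and 525 in Tim-4- TAMs. It was at 1790, 2519, 2745 and 2234 CPM in the Tim-4+ libraries and at 1386, 1326, 2023 and 1377 CPM in the Tim-4- libraries. All 4 pairs were higher in Tim-4+ TAMs, and the ranges overlapped only because the Tim-4- library of pair 783 lay above the Tim-4+ library of pair 793. The fitted log2 fold change was 0.61 ± 0.16 (SE), 1.52-fold, with an adjusted p of 0.0407 (edgeR). A second identifier with the symbol *Aldoa* held 17 to 177 counts per library, 0.0662% of the counts of the main one. The brain-type *Aldoc* had a log2 fold change of 0.16 (adjusted p = 0.577, edgeR), and *Aldoa* made up 99.3% ± 0.230 and 99.1% ± 0.154 of the aldolase CPM per kb. *Tpi1*, which encodes triose phosphate isomerase, was at 522 ± 132 and 558 ± 152 CPM, with an interval of -0.37 to 0.19 on the log2 scale.

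The next 2 enzymes, which form the step that yields NADH and the first step that yields ATP, moved in opposite directions. *Gapdh* (chr6:125161715-125166467), which encodes glyceraldehyde-3-phosphate dehydrogenase and often serves as a reference gene, was at 467, 499, 462 and 497 CPM in the Tim-4+ libraries and at 301, 277, 353 and 320 CPM in the Tim-4- libraries. The Tim-4+ libraries lay close together and above every Tim-4- library. Its log2 fold change was 0.63 ± 0.13 (SE), 1.54-fold, with an adjusted p of 0.0178 (edgeR). *Pgk1* (chrX:106187100-106203699), which encodes phosphoglycerate kinase, was at 83.6, 130, 139 and 83.0 CPM in the Tim-4+ libraries and at 104, 165, 222 and 142 CPM in the Tim-4- libraries. Each Tim-4+ library was below its partner while the ranges overlapped, and pair 783 was highest in both subsets. In the fit, its log2 fold change was -0.52 ± 0.12 (SE), 1.44-fold lower, with an adjusted p of 0.0256 (edgeR). Reads that fit several places were set aside in the deposited counts, and RefSeq names 2 pseudogenes after *Aldoa*, 3 after *Gapdh*, 2 after *Pgk1*, 2 after *Pgam1*, 3 after *Ldha* and 1 after *Ldhb*, so the levels of these genes are uncertain and may be too low. Copies and pseudogenes under other names were not counted, so these numbers may be too small and other members may be affected too.

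Among the enolase members, the dominant gene did not pass and the minor gene was lower. *Eno1* was at 617 ± 66.1 and 656 ± 78.9 CPM, with a log2 fold change of -0.09 (interval -0.41 to 0.24). It made up 99.7% and 99.2% of the summed CPM per kb of *Eno1* and *Eno2*. *Eno1b*, a copy of *Eno1* outside the members, was called higher and, like *Eno3*, was not part of this share. *Eno2*, which encodes the neuron-enriched enolase, was at 0.778, 0.940, 2.38 and 1.75 CPM in the Tim-4+ libraries and at 1.66, 6.62, 4.17 and 5.37 CPM in the Tim-4- libraries. Each Tim-4+ library was below its partner, and the ranges overlapped through the low Tim-4- library of pair 793. The log2 fold change was -1.57 ± 0.36 (SE), 2.97-fold lower, with an adjusted p of 0.0261 (edgeR), on 37 to 484 counts per library. *Pgam1*, the mutase before enolase, was at 294 ± 75.4 and 273 ± 73.6 CPM, with an interval of -0.17 to 0.38. *Slc2a3* and *Eno2*, the members with the largest falls, had the lowest levels per kb of the tested members, and both were lower where the mesothelial, epithelial and ID8 markers were lower (116 to 418 against 471 to 2220 CPM), a link that was not tested.

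*Pkm*, which encodes the pyruvate kinase of most tissues, was at 1437, 2000, 2309 and 1674 CPM in the Tim-4+ libraries and at 1195, 1272, 1904 and 1114 CPM in the Tim-4- libraries. Within every pair the Tim-4+ library was higher, but the log2 fold change of 0.45 ± 0.15 had an adjusted p of 0.0820 (edgeR). The count per gene does not separate its M1 and M2 isoforms. *Ldha*, whose subunit favors lactate formation, was at 986, 1428, 973 and 964 CPM in the Tim-4+ libraries and at 974, 1147, 1116 and 924 CPM in the Tim-4- libraries. Apart from the high Tim-4+ library of pair 784 the libraries of both subsets lay close together, and the log2 fold change was 0.05 (interval -0.29 to 0.39, adjusted p = 0.848, edgeR). *Ldhb*, whose subunit favors the reverse reaction, was at 40.1, 57.2, 101 and 63.4 CPM in the Tim-4+ libraries and at 96.0, 229, 74.0 and 312 CPM in the Tim-4- libraries. In Tim-4+ TAMs 3 pairs were lower and pair 783 was higher, and the log2 fold change of -1.31 ± 0.45 had an adjusted p of 0.0968 (edgeR). Without pair 783 it was -1.86 and passed the test. The share of *Ldhb* in the lactate dehydrogenase CPM per kb was 7.90%, 7.79%, 17.9% and 12.2% in Tim-4+ libraries and 17.2%, 29.6%, 12.3% and 41.6% in Tim-4- libraries. The Tim-4- libraries of pairs 784 and 779, which had the highest *Ldhb* shares, also had the highest sums of mesothelial, epithelial and ID8 markers (1421 and 2220 CPM), and the part of these markers in the *Ldhb* value was not tested.

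Neither lactate transporter among the members passed the test. *Slc16a3*, which encodes the lactate exporter MCT4, was at 182, 436, 250 and 145 CPM in the Tim-4+ libraries and at 214, 430, 280 and 139 CPM in the Tim-4- libraries. Pairs differed far more than subsets did, pair 784 being highest and pair 779 lowest in both. The fitted log2 fold change was -0.08 (interval -0.34 to 0.19, adjusted p = 0.682, edgeR). *Slc16a1*, which encodes MCT1, was at 18.5 ± 3.75 and 22.3 ± 1.49 CPM and lower within all 4 pairs, with an adjusted p of 0.213 (edgeR). Under total-count scaling, where the median of all genes was -0.36, both were called lower, at -0.44 and -0.65 on the log2 scale.

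**Figure D3:**
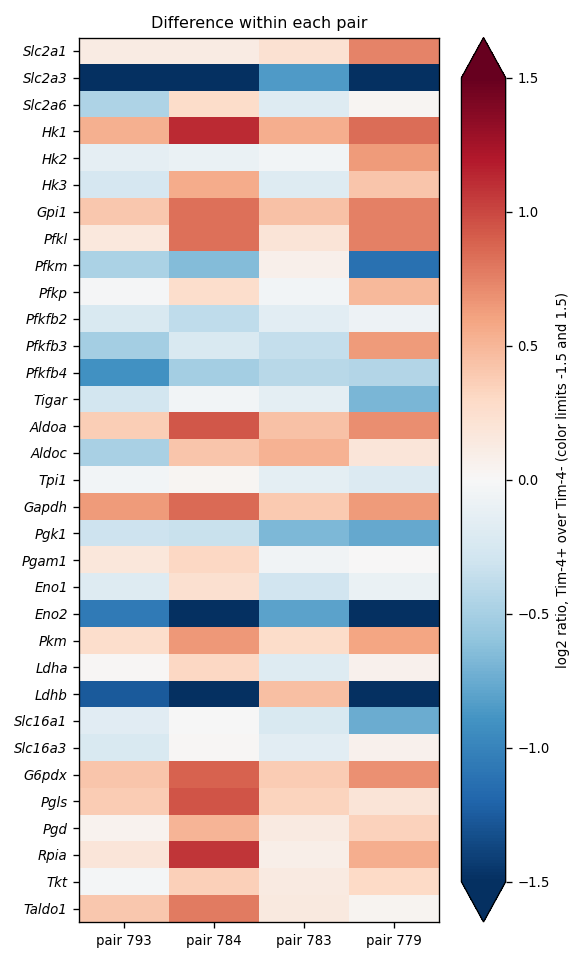
Log2 ratio of the Tim-4+ over the Tim-4- library (color, limits -1.5 and 1.5) for each tested member (rows, in pathway order) in the pairs 793, 784, 783 and 779 (columns). *Slc2a3* lies beyond the lower color limit in pairs 793, 784 and 779, and *Eno2* and *Ldhb* do so in pairs 784 and 779. *Ldhb* is blue in 3 pairs and red in pair 783.

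**Figure D4:**
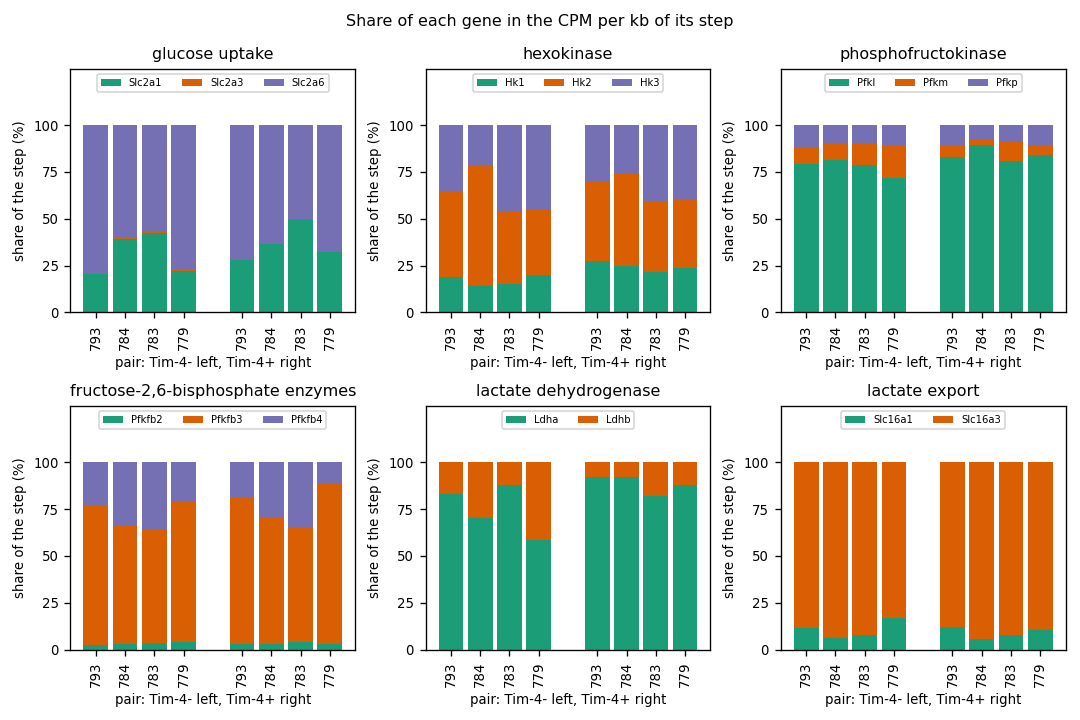
Share (vertical axis, percent) of each gene in the CPM per kb of its step, with the 4 Tim-4- libraries on the left and the 4 Tim-4+ libraries on the right of each panel, by pair. *Hk1* takes 14.0% to 20.1% of hexokinase in Tim-4- and 21.8% to 27.5% in Tim-4+ TAMs, and *Ldhb* takes 41.6% of lactate dehydrogenase in the Tim-4- library of pair 779.

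All 6 pentose phosphate genes had a log2 fold change above 0 (49.9% of all genes did), and 1 of them, *G6pdx*, passed the test. *G6pdx* (chrX:74409483-74429194) encodes glucose-6-phosphate dehydrogenase, the entry enzyme and main source of cytosolic NADPH. It was at 224, 237, 192 and 204 CPM in the Tim-4+ libraries and at 168, 129, 148 and 127 CPM in the Tim-4- libraries. The subsets did not overlap, and the Tim-4- library of pair 793 came closest to the Tim-4+ libraries. The log2 fold change was 0.59 ± 0.12 (SE), 1.50-fold, with an adjusted p of 0.0198 (edgeR). Of the other oxidative enzymes, the lactonase gene *Pgls* was at 67.4 ± 5.67 and 50.5 ± 13.9 CPM (log2 fold change 0.46, adjusted p = 0.0563, edgeR), and the dehydrogenase gene *Pgd* was at 338 ± 55.8 and 283 ± 54.0 CPM (0.26, adjusted p = 0.185). In the nonoxidative branch, the isomerase gene *Rpia* was at 39.1 ± 11.8 and 28.0 ± 8.44 CPM with an adjusted p of 0.0993 (edgeR). *Taldo1*, for transaldolase, was at 259 ± 46.6 and 204 ± 34.1 CPM with an adjusted p of 0.144, and *Tkt*, for transketolase, had a log2 fold change of 0.19 with an adjusted p of 0.332 (edgeR). The median over the 6 genes was 0.40 on the log2 scale, against -0.08 over the 27 tested glycolysis and transport genes, and within pairs 793, 784, 783 and 779 it was 0.28, 0.83, 0.14 and 0.32. Of the 6 genes, 5 were higher in the Tim-4+ library of all 4 pairs (22.4% of all genes were). Under total-count scaling *Pgd*, *Tkt* and *Taldo1* turned to -0.10, -0.17 and -0.02, still above the median of all genes of -0.36.

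The neighboring pathways were read from 7 further lists with the same edgeR test and adjustment over all genes. Beside the counts of each list stand 8.97% of all genes called higher and 8.43% called lower. Of the 16 glucose and lactate carriers outside the members 8 were tested, 2 were higher and 2 lower. *Bsg*, which encodes basigin, the chaperone of MCT1 and MCT4, was at 613, 679, 592 and 786 CPM in the Tim-4+ libraries and at 343, 314, 399 and 396 CPM in the Tim-4- libraries, without overlap. Its log2 fold change was 0.88 ± 0.14 (SE) with an adjusted p of 0.00961 (edgeR). *Emb*, which encodes embigin, another chaperone of monocarboxylate transporters, went the opposite way, at 5.65, 3.74, 6.32 and 4.97 CPM against 18.1, 11.4, 24.4 and 20.6 CPM (log2 fold change -1.82 ± 0.15, adjusted p = 0.00255, edgeR). *Slc16a7*, for the monocarboxylate transporter MCT2, had a log2 fold change of 0.49 and *Slc37a2*, for a sugar-phosphate carrier, one of -0.79. Of 23 further isoenzymes and glycolysis enzymes, 14 were tested, 1 was higher and 3 were lower. The higher one was *Eno1b* (0.60), a copy of *Eno1* whose reads may be shared with it, and the lower ones were *Eno3* (-0.91), *Ldhd* (-1.34) and *Pgp* (-0.56). Of 12 further pentose phosphate enzymes 9 were tested, 0 were higher and 1 was lower, *Prps2* (-0.46), which makes phosphoribosyl pyrophosphate. Of these 9 genes 7 were below 0, and 5 were lower in all 4 pairs (20.2% of all genes were). Their median was -0.23 on the log2 scale, of the opposite sign to the median of the 6 members.

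Among 22 glycogen and UDP-glucose enzymes 18 were tested, of which 4 were higher in Tim-4+ TAMs (8.97% of all genes were) and 0 were lower (8.43%). *Gbe1*, the glycogen branching enzyme, was at 119, 125, 82.7 and 105 CPM in the Tim-4+ libraries and at 50.7, 31.0, 36.1 and 24.4 CPM in the Tim-4- libraries. *Gyg*, for glycogenin, the primer of glycogen, was at 142, 103, 155 and 206 CPM and at 81.6, 32.7, 98.3 and 78.4 CPM in the same order. Neither gene overlapped between subsets, and their log2 fold changes were 1.64 ± 0.19 (adjusted p = 0.00609) and 1.13 ± 0.18 (adjusted p = 0.0107) by edgeR. *Pygl*, for the phosphorylase that breaks glycogen down, was at 633 ± 170 and 294 ± 132 CPM (1.17 ± 0.20, adjusted p = 0.0114, edgeR), and *Gsk3b*, for a kinase that inhibits glycogen synthase, had a log2 fold change of 0.40. The median over the 18 genes was 0.05 on the log2 scale. The list of hexosamine and serine branches also held enzymes of fructose, sorbitol and glycerol phosphate. Of its 16 genes 3 were higher and 3 lower. The higher ones were *Uap1* (0.82), of the hexosamine branch, *Khk* (1.50), for fructose, and *Sord* (0.52), for sorbitol. *Psph* (-1.53), of serine synthesis, was among the lower ones. At a 2-fold change 1 was higher (3.8% of all genes) and 3 were lower (5.79%). The subsets did not overlap for 1 higher (6.84%) and 6 lower genes (5.92%). Of these 16 genes 11 were below 0, and their median was -0.29 on the log2 scale. In all 4 pairs 3 were higher (22.4% of all genes were) and 8 were lower (20.2%). For entry of pyruvate into mitochondria, 2 of 14 genes were higher, *Pdha1* (0.41) and *Pdhb* (0.38), the subunits of the first enzyme of pyruvate dehydrogenase, and 0 were lower.

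Of 26 transcription factors and regulators of glycolysis, 5 were higher (8.97% of all genes were) and 1 was lower (8.43%). At a 2-fold change 3 were higher (3.8%) and 0 were lower (5.79%), and of the genes named here only *Epas1* was among these 3. *Epas1*, which encodes HIF-2α, was at 156 ± 20.0 CPM in Tim-4+ and 31.5 ± 9.24 CPM in Tim-4- TAMs, without overlap, with a log2 fold change of 2.34 ± 0.16 and an adjusted p of 0.00117 (edgeR). *Mlxipl*, for the glucose-sensing factor ChREBP, had a log2 fold change of 0.95 (adjusted p = 0.0107) and *Arntl*, for the clock factor BMAL1, one of 0.80 (adjusted p = 0.0111), both by edgeR. *Vhl*, for the ligase subunit that marks HIF proteins for removal, had one of -0.79 (adjusted p = 0.0108, edgeR). *Hif1a*, which was chosen after its values were seen, had a log2 fold change of 0.02 and an adjusted p of 0.923 (edgeR). These are transcript levels, and the activity of the factors was not measured.

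**Figure D5:**
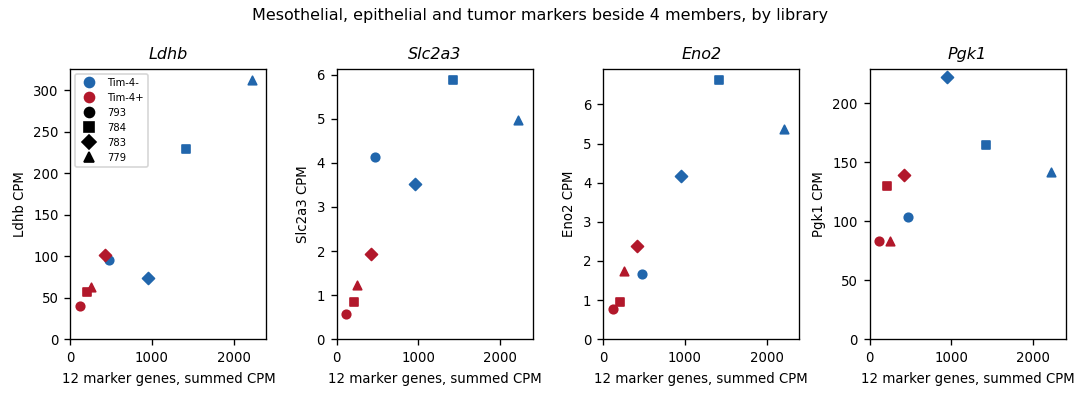
Level of 4 members (vertical axis, CPM) against the summed CPM of the 12 mesothelial, epithelial and ID8 tumor markers (horizontal axis) in each library, blue for Tim-4- and red for Tim-4+, with a symbol per pair. The Tim-4+ libraries sit at 116 to 418 CPM of markers and the Tim-4- libraries at 471 to 2220 CPM, and the Tim-4- library of pair 779 is highest in both the markers and *Ldhb*.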

How the data were processed

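RNA of 4 Tim-4+ and 4 Tim-4- TAM libraries was sequenced over 2 lanes per library. For each lane and gene the authors deposited the raw count of reads, a whole number. The submitters' processing notes name TopHat2 2.0.13, Cufflinks and Cuffdiff 2.2.1 on GRCm38 (mm10). The read counter and its use of strand are not given in the sources used here, which leaves antisense and overlapping genes uncertain. Reads with several matches were set aside by the authors before the counts were deposited.

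The 2 lanes of a library were summed. Of the 16 lanes, 15 list Ensembl identifiers, and 1 (Tim-4-, pair 793) lists symbols and was joined by order after its *Timd4* row was moved back, with 96.8% of symbols matching. GENCODE M21 (GRCm38) gave names, coordinates and exon lengths for 98.6% of 55604 identifiers. The 16861 genes that reached 10 counts in 4 or more libraries were fitted by edgeR 4.0.16 (R 4.3.3) using TMM factors, the pair as a blocking term, robust quasi-likelihood tests and adjustment after Benjamini-Hochberg. Members were called at an adjusted p under 0.05. The SE is the log2 fold change divided by the square root of F, and CPM are TMM-scaled. Totals of 53527928 to 69594245 counts set the precision of low genes. Pair numbers come from the labels. The deviations of partners from their subset means correlated at 0.471, 0.498, 0.408 and 0.277 over genes. Fits were tested on simulated data.

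The members, the other gene lists and the tests were chosen with earlier results of these data known. All 34 members are accounted for. Values per library are given for called members and for the gene with the most CPM per kb at the main steps, and at most 4 called genes with the smallest p are named of each other list. *Ldhb*, *Bsg*, *Emb*, *Gbe1* and *Gyg* were given per library after their values were seen. Alternatives were other scalings, filters, lanes, DESeq2 1.42.0, no block, each pair left out and other gene lengths. The Tim-4- library of pair 779 by lane 1 alone was added after the data were seen, because the reads set aside there numbered 10020232 in lane 1 and 3153643 in lane 2.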

Additional observations from a re-analysis of the deposited data

Results flagged for a closer look

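In 7 of the 66 groups of 4 libraries (33 members in 2 subsets) a library lay apart from the other 3 by Dixon's rule, which chance alone does in about 1 of 20 groups. The Tim-4+ library of pair 784 was the highest for *Slc2a6*, at 425 CPM against 155 to 188 CPM, for *Pfkl*, at 793 CPM against 405 to 440 CPM, and for *Ldha*, at 1428 CPM against 964 to 986 CPM. The Tim-4+ library of pair 783 was the highest for *Pfkm*, at 29.7 CPM against 13.8 to 15.4 CPM. The Tim-4- library of pair 783 was the highest for *Aldoa*, at 2023 CPM against 1326 to 1386 CPM, and for *Pfkfb2*, at 11.2 CPM against 7.78 to 8.26 CPM. The Tim-4- library of pair 793 was the highest for *Rpia*, at 40.5 CPM against 22.1 to 24.8 CPM. Of these genes only *Aldoa* was called. The Tim-4+ and Tim-4- libraries of pair 783 also had the highest erythroid marker sums, 255 and 65.5 CPM, and the part of these in its values was not tested.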

How the results depend on the processing

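With DESeq2 size factors, TMM without mitochondrial genes, a filter of 50 counts, without the symbol-listed lane and with lane 1 alone for the Tim-4- library of pair 779, the 9 members called were called again and no other. Under total counts per library, 1 member was higher and 13 were lower, all genes gave 789 higher and 4906 lower calls, the share of higher among all calls went from 51.6% to 13.9%, and these turned below 0: *Hk2* (-0.27), *Pgam1* (-0.25), *Aldoc* (-0.20), *Pfkp* (-0.18), *Tkt* (-0.17), *Taldo1* (-0.0155), *Hk3* (-0.23), *Slc2a1* (-0.0528), *Pgd* (-0.10) and *Ldha* (-0.31). In both scalings 19 members lay above the median of all genes. With no replicate block, members gave 0 higher and 1 lower call and all genes 147 and 85. With DESeq2, 8 members were higher (*Pfkl*, *Pgls* and *Pkm* added), and 2194 genes were higher (13.01% of those tested) and 2328 lower. No count filter added *Pfkl* and *Pgls*, and lane 2 alone added *Pgls*. Joined by symbol, *Aldoa* could not be tested because 2 identifiers share it. With each pair left out in turn, members called ranged from 0 to 5 higher and from 0 to 5 lower, and all genes from 91 to 1603 higher and from 67 to 1983 lower, with the lowest counts without pair 784. *Pfkfb3* and *Slc2a6* changed sign without pair 793 (ranges over the pairs left out -0.366 to 0.0182 and -0.211 to 0.0426), *Hk3* and *Ldha* without pair 784 (-0.0143 to 0.265 and -0.0396 to 0.132), and *Hk2* without pair 779 (-0.0900 to 0.170). With the longest transcript as length, the share of *Hk2* was 33.8% in Tim-4+, that of *Pfkl* 82.3% in Tim-4-, and that of *Aldoa* 99.6% in Tim-4+ and 99.5% in Tim-4- TAMs. Without division by length, *Pfkl* was at 79.3% and *Ldha* at 94.2% in Tim-4+ TAMs. The cause of these shifts was not tested. With 4 pairs, small differences such as that of *Pgls* may go undetected, and *Slc2a3*, *Eno2* and *Fbp1* rest on few counts.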
